A study of Mus musculus with 4 samples.

Results

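Fatty acid elongases (ELOVL enzymes) and desaturases (SCD and FADS enzymes) decide the chain length and the double bonds of the fatty acids that a fat cell stores and builds into membranes. The members described here are the 10 genes Elovl1, Elovl3, Elovl4, Elovl5, Elovl6, Elovl7, Scd1, Scd2, Fads1 and Fads2, chosen by gene name from the 51912 genes of the deposited table. All 10 were found, each on 1 row. They were measured by RNA sequencing in subcutaneous white fat, the depot under the skin, of C57BL/6 mice aged 8 weeks. One group of mice was treated with BML-260, a small molecule described as inhibiting DUSP22, a phosphatase, and the other with its vehicle, dimethyl sulfoxide (DMSO). There were 2 BML-260 libraries and 2 vehicle libraries, labelled A and B in each group. The series names 8 mice, 4 per treatment, and does not say whether a library is 1 mouse or a pool. The p-values therefore reflect the spread between libraries, which may be technical.

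An elongase adds a 2-carbon unit from malonyl-CoA to a fatty acid in the endoplasmic reticulum, and partner enzymes then reduce and dehydrate the product. ELOVL6 lengthens palmitate to stearate, ELOVL5 acts on polyunsaturated chains, and ELOVL1, ELOVL3 and ELOVL7 make long and very long saturated or monounsaturated chains. SCD enzymes put the first double bond into stearate and palmitate, while FADS2 and FADS1 act in turn on the way from dietary linoleate and linolenate to arachidonate and its relatives. In mice Elovl3 is known as the elongase that cold induces in brown fat, and it is also strongly expressed in the sebaceous glands of the skin.

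Elovl3 stood apart from the other members. Its level averaged 13.5 ± 0.23 CPM (counts scaled to a common library size) with BML-260 and 1.41 ± 0.99 CPM with vehicle (SD, n = 2 each), with a fitted fold of 9.48. The other members with enough reads lay within a narrower range. Scd2 and Fads1, a stearoyl-CoA desaturase and a desaturase of polyunsaturated fatty acids, were lower in both BML-260 libraries than in both vehicle libraries. So was Elovl7, at low counts, and so were 21.5% of all tested genes. Scd1, by far the most abundant, had nearly the same mean in both groups. At an adjusted p under 0.05 in edgeR (quasi-likelihood, over all genes), 0 members were called, where 1 of 15643 tested genes was, or 0.00639%.

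**Figure D1:**
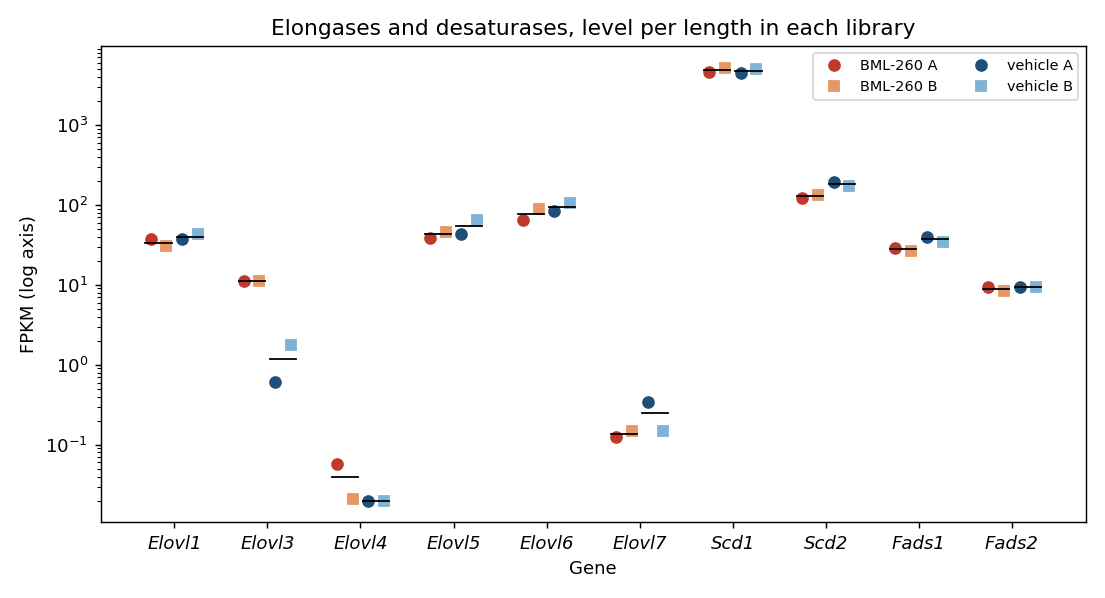
Level per length (FPKM, log axis) of the 10 elongase and desaturase genes in the 4 libraries; points are libraries, short black lines the mean of each group. Elovl3 lies at 11.3 and 11.2 FPKM with BML-260 and at 0.611 and 1.77 FPKM with vehicle, while Scd1 lies between 4430 and 5218 FPKM.

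Total expected counts lay between 19999836 and 23726781 per library. Marker genes of other cell types differed between the libraries. The 15 skeletal muscle markers, led by Myh4, summed to 31534 and 48617 CPM with BML-260 and to 415 and 11220 CPM with vehicle, with every marker above 0 in every library. The 12 markers of thermogenic adipocytes, led by Ucp1, summed to 772 and 860 CPM with BML-260 and 188 and 219 CPM with vehicle. Both sums, of muscle and of thermogenic markers, were higher in both BML-260 libraries than in both vehicle libraries. Ucp1 alone had 251 and 263 CPM with BML-260 and 7.88 and 9.68 CPM with vehicle. Most of the thermogenic sum with vehicle thus came from the other markers. Whether muscle RNA adds to the thermogenic sum was not tested. The 12 markers of mature adipocytes, led by Cfd, summed to 30044 and 43601 CPM with BML-260 and 49793 and 48866 CPM with vehicle, so adipocyte transcripts were abundant in each library. The 10 Schwann cell markers, led by Pmp22, summed to 464 and 652 CPM with BML-260 and 1079 and 862 CPM with vehicle, and the 10 endothelial ones, led by Cdh5, to 562 and 748 CPM with BML-260 and 934 and 829 CPM with vehicle. These adipocyte, Schwann cell and endothelial sums were lower in both BML-260 libraries. B cell markers, led by Ighm, were highest in BML-260 A, summing to 461 CPM, against 168 CPM in BML-260 B and 174 and 144 CPM with vehicle. T and NK cell markers, led by Tcf7, summed to 121 CPM in BML-260 A, 20.5 CPM in BML-260 B, and 11.8 and 24.8 CPM with vehicle. Lymphocyte markers thus set BML-260 A apart from the other 3 libraries. Macrophage markers, led by Lyz2, spanned 1320 to 2587 CPM, both limits being BML-260 libraries, and fibroblast markers, led by Col3a1, summed to 10697 and 8583 CPM with BML-260 and 7251 and 9590 CPM with vehicle. In bulk tissue, fewer cells of a type and less RNA per cell cannot be told apart.

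Elovl3 (ENSMUSG00000038754) is a protein-coding gene of the plus strand (GRCm38 chromosome 19, 46131897 to 46135694). The deposited table held 278 and 301 expected counts for it in BML-260 A and B, against 15 and 49 counts in vehicle A and B. In CPM these are 13.4 and 13.7 with BML-260 and 0.712 and 2.12 with vehicle. The BML-260 libraries were close to each other, the vehicle libraries were not, and the groups did not overlap. Counting error alone gives 95% intervals (exact Poisson) of 8.40 to 24.7 counts around vehicle A and 36.3 to 64.8 around vehicle B, so the 2.97-fold difference between the vehicle libraries was larger than counting noise.

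The log2 fold change of Elovl3 was 3.24 (SE 0.50), with a 95% confidence interval of 3.94-fold to 22.8-fold and higher values in both BML-260 libraries. Its unadjusted p was 0.00106, the rank of 61 among 15643 tested genes, and its edgeR p after Benjamini-Hochberg adjustment was 0.270. DESeq2 called it, with an adjusted p of 3.17e-07, and limma-voom did not (adjusted p = 0.231). The authors' deposited table gives a log2 fold change of 2.03 and an adjusted p of 1.28e-07 and marks the gene as significant. How that fold change was computed is not stated, so 2.03 may not be on the same measure as 3.24. Without vehicle B the log2 fold change was 4.24 and without vehicle A it was 2.65, each from a fit with 1 vehicle library. When every gene with at least 1 count was kept in the test, edgeR called Elovl3 (log2 fold change 3.24, adjusted p = 5.47e-04).

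Skeletal muscle and thermogenic adipocyte markers were higher in the same libraries as Elovl3. Of the vehicle libraries, A had both less Elovl3 and a lower sum of muscle markers than B, while the thermogenic sums of A and B were close. The part of muscle RNA and of thermogenic adipocytes in the values of Elovl3 was not tested. Of 10 sebaceous gland markers, led by Mgst1, which many tissues express, the sum was 706 and 1002 CPM with BML-260 and 1116 and 1103 CPM with vehicle. Of the 10, 8 to 9 were above 0, and the sebocyte gene Awat1 was at 0 in every library. Pparg is in this list and in that of mature adipocytes, so the sum is not particular to sebaceous glands. Epidermal markers, led by Trp63, summed to 10.1 and 12.1 CPM with BML-260 and 24.9 and 18.2 CPM with vehicle, with 4 to 7 of 10 above 0 and the keratin genes Krt15 and Krt1 and the desmoglein gene Dsg3 at 0 throughout. Mammary epithelial markers, led by Krt19, summed to 2.89 and 2.23 CPM with BML-260 and 3.99 and 3.59 CPM with vehicle, with 5 to 8 of 10 above 0 and the milk protein genes Csn3 and Wap at 0 in each library. The part of skin and gland tissue in the values of Elovl3 was not tested.

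**Figure D2:**
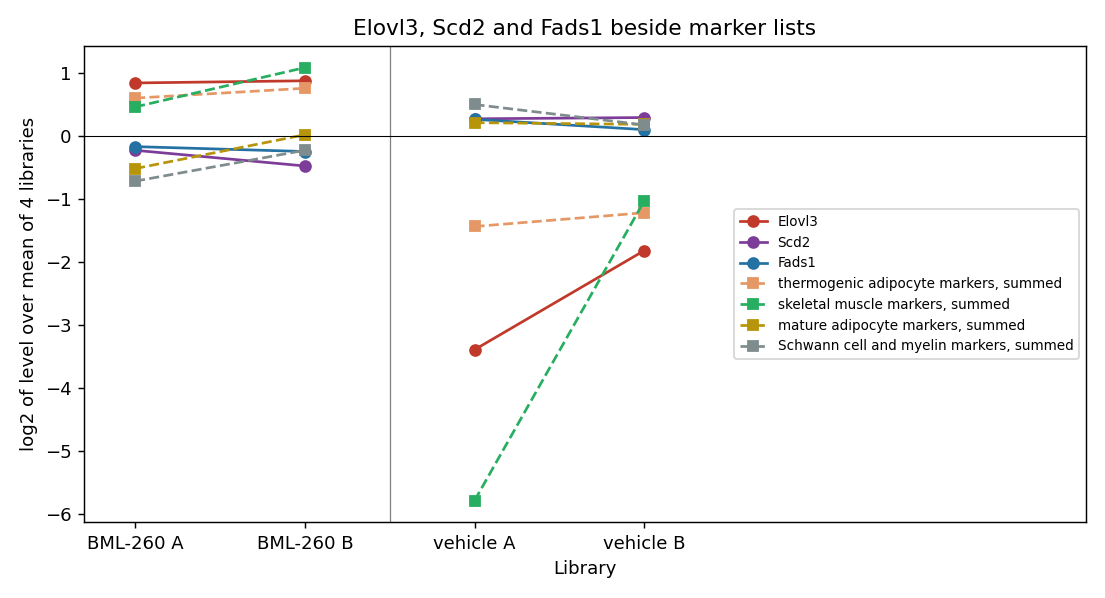
Elovl3, Scd2 and Fads1 (solid lines) and the summed levels of 4 marker lists (dashed lines) in each library, as log2 of the CPM over the mean of the 4 libraries; lines join libraries of 1 group. Elovl3 lies at 0.84 and 0.87 with BML-260 and at -3.39 and -1.82 with vehicle, and the muscle markers at 0.46 and 1.08 with BML-260 and -5.79 and -1.03 with vehicle.

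Elovl3 overlaps exons of Pitx3, a transcription factor gene on the opposite strand, and no strand setting was given. The overlap is short and runs only from 46135685 to 46135694, at the end of Elovl3. Pitx3 had 13 and 34 counts with BML-260 and 6 and 5 with vehicle, far fewer than Elovl3 in the BML-260 libraries. None of the 1973 windows of 50 bases in annotated Elovl3 transcripts occurs in a transcript of another gene, so it has no sequence of that length in common with another annotated gene.

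The 5 tested genes whose profile over the 4 libraries lay nearest to that of Elovl3, among the 13132 whose average log2 CPM was at least 1, were Slc27a2, Fabp3, Tfcp2l1, Kcnj12 and Atcayos. Nearness was the Euclidean distance between log2 CPM profiles centred on their means, from 0.25 for Slc27a2 to 0.49 for Atcayos. Slc27a2, which encodes a very long-chain acyl-CoA synthetase, had 6.12 and 7.29 CPM with BML-260 and 0.380 and 1.08 CPM with vehicle. Fabp3, the heart-type fatty acid binding protein gene, had 23.3 and 28.3 CPM with BML-260 and 1.33 and 5.01 CPM with vehicle. The level in vehicle B was 2.85 to 5.07 times that in vehicle A for these 5 genes, beside 2.97 times for Elovl3. The genes were chosen for a profile like that of Elovl3 over these same libraries, so this likeness follows from the choice. With 4 libraries the distances describe the profiles and carry no test.

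The more abundant elongases were Elovl6, Elovl5 and Elovl1. Elovl6 (chromosome 3, 129532355 to 129638495, plus strand), which makes stearate, had 349 and 486 CPM with BML-260 and 444 and 577 CPM with vehicle. In each group the B library was the higher one and the groups overlapped, and the log2 fold change was -0.29 (SE 0.25, adjusted p = 0.694 by edgeR). Of its 50-base transcript windows, 3.98% occur elsewhere, mostly in Gm11295. Elovl5 (chromosome 9, 77917364 to 77984519, plus strand), the elongase of polyunsaturated chains, had 94.7 and 116 CPM with BML-260 and 106 and 161 CPM with vehicle. Vehicle B was the highest library, and the log2 fold change was -0.35 (SE 0.24, edgeR adjusted p = 0.622), or -0.010 without vehicle B and -0.64 without vehicle A. Elovl1 (chromosome 4, 118428093 to 118432953, plus strand), which makes very long saturated chains, had 39.9 and 31.7 CPM with BML-260 and 37.6 and 42.5 CPM with vehicle. The groups overlapped, the log2 fold change was -0.16 (SE 0.16, edgeR adjusted p = 0.736), and its 95% interval ran from 0.675-fold to 1.18-fold. Elovl1 overlaps exons of the cell cycle gene Cdc20 on the other strand, only from 118432901 to 118432953. Cdc20 had 203 and 75 counts with BML-260 and 39 and 65 with vehicle. Elovl1 had 828 and 696 counts with BML-260 and 792 and 983 with vehicle.

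Elovl7 and Elovl4 were near the limit of detection. Elovl7 (chromosome 13, 108214404 to 108285683, plus strand) had 13 and 17 counts with BML-260 and 37 and 18 with vehicle. Only vehicle A stood out, and the log2 fold change was -0.84 (SE 0.55, edgeR adjusted p = 0.608), or -0.18 without vehicle A. Elovl4 (chromosome 9, 83778692 to 83806277, minus strand), which makes the ultra-long chains of retina and skin, had 3 and 1 counts with BML-260 and 1 and 1 with vehicle, and did not pass the filter on low counts. A difference in Elovl4 was not detectable at this depth.

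Scd1 and Scd2 lie 87.6 kb apart on opposite strands of chromosome 19, with Scd4, a further stearoyl-CoA desaturase gene, between them. Scd1 lies 1.72 Mb from Elovl3. Scd1 (44394455 to 44407879, minus strand), the main stearoyl-CoA desaturase of white fat and liver, had 20950.5 and 24161 CPM with BML-260 and 19691 and 22845 CPM with vehicle. In both groups the B library was the higher one, the groups overlapped, and the log2 fold change was 0.08 (SE 0.33, adjusted p = 0.942 by edgeR) with a 95% interval of 0.597-fold to 1.88-fold. That interval is too wide to say that Scd1 was equal in the groups.

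Scd2 (44293674 to 44306864, plus strand), a stearoyl-CoA desaturase known for its role in brain and in early development of mice, had 399 and 336 CPM with BML-260 and 564 and 572 CPM with vehicle. Both BML-260 libraries lay below both vehicle libraries. The log2 fold change was -0.63 (SE 0.18), or 0.647-fold with a 95% interval of 0.473 to 0.884, with an unadjusted p of 0.0153 and an adjusted p of 0.367 in edgeR's test. DESeq2 called it lower with an adjusted p of 0.00377. The authors' deposited table gives a log2 fold change of -0.61 with an adjusted p of 0.0053. It does not mark Scd2 as significant although that value is under 0.05, so the mark does not follow that threshold alone. Leaving out each library in turn gave log2 fold changes between -0.77 and -0.51. Mature adipocyte, Schwann cell and endothelial markers were also lower in the BML-260 libraries, and their part in the values of Scd2 was not tested.

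Scd1 and Scd2 hold some identical transcript sequence. Of the 50-base windows of annotated transcripts, 4.56% in Scd1 and 3.97% in Scd2 also occur in another gene, mostly other Scd genes. The expected counts of Scd2 have decimals in BML-260 A, BML-260 B and vehicle B. Scd1 had 52.5 and 72.0 times the counts of Scd2 with BML-260 and 34.9 and 39.9 times with vehicle. Whether reads of Scd1 were credited to Scd2 was not tested. The transcript length implied by the deposited counts and FPKM (fragments per kilobase of transcript, scaled to depth) was 3.37 and 2.32 kb for Scd2 with BML-260 and 3.01 and 3.35 kb with vehicle. For Scd1 it was 4.70 and 4.28 kb with BML-260 and 4.59 and 4.56 kb with vehicle. The length credited to Scd2 in BML-260 B was therefore shorter than in the other libraries, and in FPKM, 123 and 134 with BML-260 against 193 and 172 with vehicle, BML-260 B is the higher of its group and not the lower.

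Fads1 and Fads2 lie 81.1 kb apart on chromosome 19. Fads1 (10182888 to 10196877, plus strand), which catalyses the later desaturation on the way to arachidonate, had 91.0 and 86.2 CPM with BML-260 and 123 and 110 CPM with vehicle. Both BML-260 libraries lay below both vehicle libraries. Its log2 fold change was -0.39 (SE 0.12, edgeR unadjusted p = 0.0238, adjusted p = 0.391), or 0.762-fold with a 95% interval of 0.612 to 0.948, and DESeq2 did not call it (adjusted p = 0.185). Fads2 (10062765 to 10101746, minus strand), which catalyses the first step of that path, had 11.3 and 10.2 CPM with BML-260 and 11.1 and 11.3 CPM with vehicle. The 4 libraries were close together, and the log2 fold change was -0.06 (SE 0.17, edgeR adjusted p = 0.923; 95% interval 0.710-fold to 1.30-fold).

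**Figure D3:**
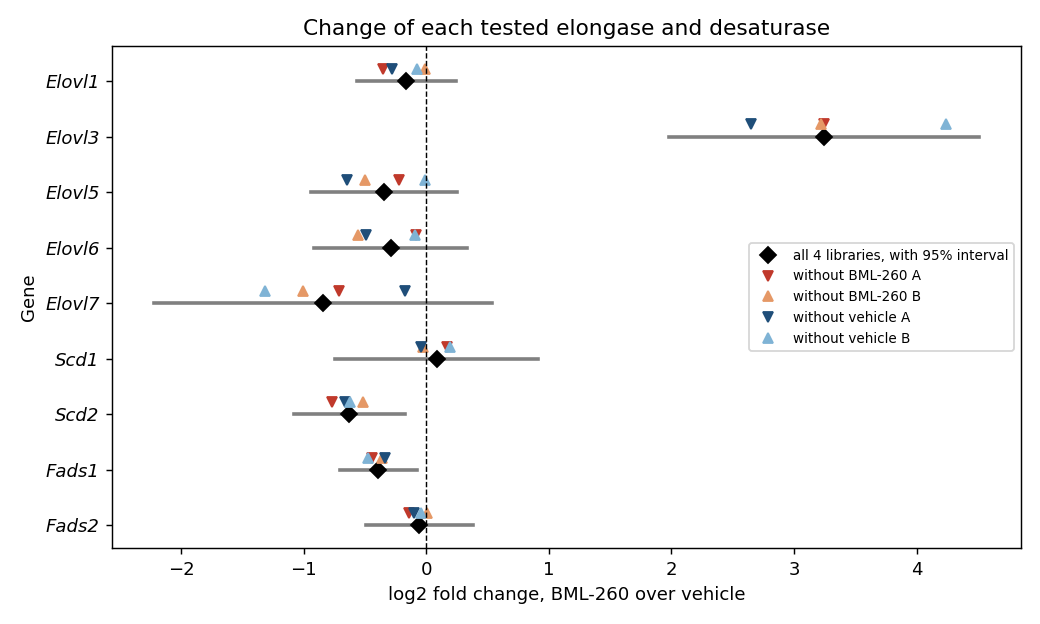
Log2 fold change, BML-260 over vehicle, of the 9 tested members (black diamonds, with 95% intervals from edgeR as grey lines) and the same without each library in turn (triangles). Elovl3 at 3.24 keeps to the right of zero in each of the 4 fits, from 2.65 to 4.24, and Scd2 and Fads1 keep to the left.

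Over the family, 9 of 10 members passed the filter on low counts, 2 of them with a log2 fold change above zero and 7 below, and their median was -0.29, against 0.02 over all tested genes. Without vehicle B the members' median was -0.073. At an unadjusted p under 0.05, 1 member was higher and 2 were lower, where 7.45% of all tested genes were higher and 3.61% lower. DESeq2 called Elovl3 higher and Scd2 lower, where it called 2.09% of tested genes higher and 0.499% lower. The groups did not overlap in 4 members, with Elovl3 higher and Elovl7, Scd2 and Fads1 lower in both BML-260 libraries, where 22.9% of tested genes were higher and 21.5% lower in that way. For Elovl7 the nearest values of the groups were 0.774 CPM in BML-260 B and 0.778 CPM in vehicle B. The median of the 8 tested members without Elovl3 was -0.32.

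Levels of different genes can be compared in FPKM, which corrects for length. With BML-260 the order was Scd1 at 4925 ± 415 FPKM, Scd2 at 128 ± 7.67, Elovl6 at 76.5 ± 15.8, Elovl5 at 42.7 ± 5.23, Elovl1 at 33.8 ± 4.75, Fads1 at 27.8 ± 1.54, Elovl3 at 11.3 ± 0.0445 and Fads2 at 8.84 ± 0.776 (SD, n = 2). With vehicle it was Scd1 at 4731 ± 427 FPKM, Scd2 at 182 ± 15.3, Elovl6 at 94.3 ± 14.5, Elovl5 at 54.3 ± 14.8, Elovl1 at 39.8 ± 4.04, Fads1 at 37.2 ± 3.57, Fads2 at 9.38 ± 0.0403 and Elovl3 at 1.19 ± 0.82. Only the place of Elovl3 differed between the orders, as it lay above Fads2 with BML-260 and below it with vehicle. Within libraries, Elovl5 was above Elovl1 in all 4, at 39.0 and 46.4 FPKM for Elovl5 against 37.1 and 30.4 for Elovl1 with BML-260, and 43.8 and 64.7 against 36.9 and 42.6 with vehicle. Elovl1 and Fads1 changed places in vehicle A, with 36.9 FPKM for Elovl1 and 39.7 for Fads1, so the order of these neighbours was not the same in each library. Elovl7 averaged 0.137 FPKM with BML-260 and 0.247 with vehicle, and Elovl4 0.0395 with BML-260 and 0.0200 with vehicle.

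Set against the other elongases in the same library, Elovl3 supplied 7.37% and 6.38% of the summed FPKM of the 6 elongases with BML-260, and 0.369% and 0.828% with vehicle. This share does not depend on the scaling between libraries. Elovl6 supplied 42.7% and 49.9% with BML-260 and 50.7% and 48.9% with vehicle, Elovl5 25.5% and 26.4% with BML-260 and 26.4% and 30.3% with vehicle, and Elovl1 24.3% and 17.3% with BML-260 and 22.3% and 19.9% with vehicle. Elovl6 was the most abundant elongase in each of the 4 libraries. The summed elongase level was 153 and 176 FPKM with BML-260 and 166 and 214 FPKM with vehicle.

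**Figure D4:**
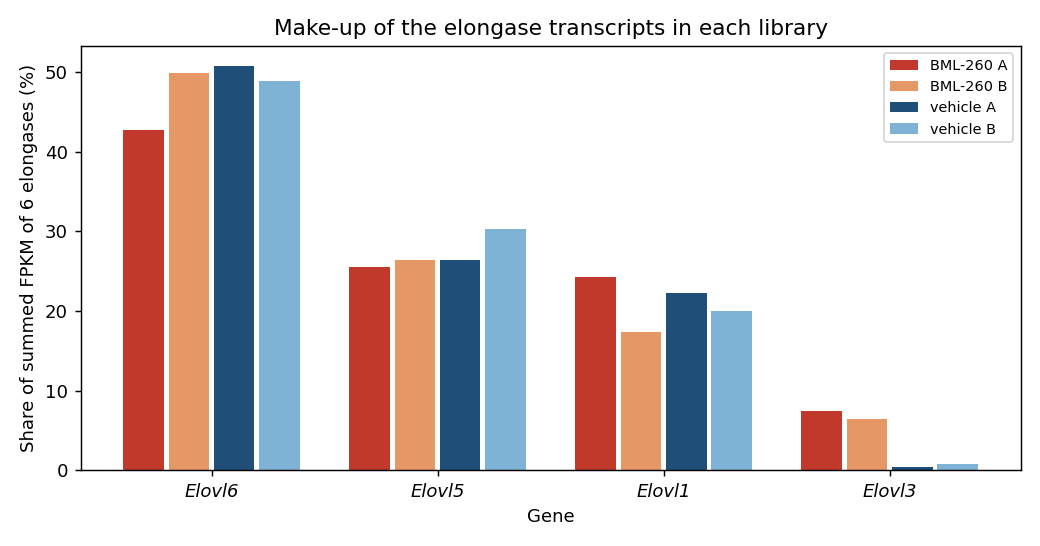
Share of each of the 4 best expressed elongases in the summed FPKM of 6 elongases, as bars for each library. Elovl3 has 7.37% and 6.38% with BML-260 and 0.369% and 0.828% with vehicle, and Elovl6 is the tallest in each library.

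Scd1 made up 96.6% and 96.9% of the summed FPKM of Scd1, Scd2, Fads1 and Fads2 with BML-260 and 94.8% and 95.9% with vehicle. Other desaturases, such as Fads3, are not in this sum. The ratio of Scd2 to Scd1 within a library was 0.0266 and 0.0256 with BML-260 and 0.0436 and 0.0341 with vehicle, lower in both BML-260 libraries. The ratio of Fads1 to Fads2 was 3.07 and 3.22 with BML-260 and 4.22 and 3.70 with vehicle, again without overlap. The ratio of Elovl6 to Elovl5 was 1.68 and 1.89 with BML-260 and 1.92 and 1.61 with vehicle, with overlap. An exact permutation test of 2 libraries against 2 cannot give a two-sided p below 0.333, so these ratios carry no test.

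The remaining members of both families were mostly rare. Scd4, a stearoyl-CoA desaturase known from the mouse heart, had 8 and 8 counts with BML-260 and 1 and 2 with vehicle. Scd3, known from skin and the Harderian gland, had 4 and 5 counts with BML-260 and 3 and 4 with vehicle, and Elovl2, an elongase of polyunsaturated chains, had 1 and 0 with BML-260 and 1 and 2 with vehicle. The 0 in BML-260 B allows up to 0.137 CPM, the level of 3 counts. These 3 genes did not pass the filter on low counts. Fads3, a desaturase that acts on sphingoid bases, was not rare. It had 204 and 264 CPM with BML-260 and 228 and 215 CPM with vehicle (log2 fold change 0.08, SE 0.18). In FPKM, Fads3 had 80.4 and 98.8 with BML-260 and 91.1 and 83.9 with vehicle, above Fads1 and Fads2 in each library. Fads6 had 4.96 and 5.19 CPM with BML-260 and 6.08 and 6.01 CPM with vehicle (log2 fold change -0.25, SE 0.22).

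Of 50 other genes of the pathway, listed in 7 roles, 47 were tested. Their median log2 fold change was -0.13, with 16 above zero and 31 below, and 0 passed edgeR's adjusted p of 0.05. At an unadjusted p under 0.05, 4 were higher and 3 lower, where 7.45% of all tested genes were higher and 3.61% lower. DESeq2 called Ppara higher and Acly lower, where it called 2.09% of tested genes higher and 0.499% lower. Exons of Hacd2, Acsl3, Cers2, Acaa1a and Agpat3 overlap those of another annotated gene, so their counts may hold its reads.

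Among the 6 partner enzymes of the elongation cycle, the dehydratase genes Hacd1 and Hacd2 differed in sign. Hacd1, whose product is the muscle-enriched dehydratase, had 26.4 and 31.5 CPM with BML-260 and 17.8 and 20.9 CPM with vehicle, or 0.58 as log2 fold change (SE 0.16, adjusted p = 0.359 by edgeR). Hacd2, the widely expressed one, had 131 and 183 CPM with BML-260 and 252 and 221 CPM with vehicle, or -0.59 as log2 fold change (SE 0.20, adjusted p = 0.419 by edgeR). Skeletal muscle markers were higher and mature adipocyte markers lower in the BML-260 libraries, and their part in these values was not tested. The group of 6 had 2 genes above zero and 4 below.

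Of the 4 electron carriers that serve desaturases, 2 were above zero and 2 below. Cyb5a, which encodes cytochrome b5, had 189 and 252 CPM with BML-260 and 317 and 303 CPM with vehicle (log2 fold change -0.49, SE 0.19, edgeR adjusted p = 0.443). Cyb5r1, a cytochrome b5 reductase gene, had 30.0 and 34.4 CPM with BML-260 and 28.2 and 25.3 CPM with vehicle (log2 fold change 0.27, SE 0.14, edgeR adjusted p = 0.538).

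The 10 genes that supply malonyl-CoA and acyl-CoA had 3 members above zero, Acsl3, Acsl4 and Acsl5, and 7 below, among them the acyl-CoA synthetase gene Acsl1 at a log2 fold change of -0.07 and the acetyl-CoA synthetase gene Acss2 at -0.40. Acsl3 had 23.9 and 33.1 CPM with BML-260 and 14.1 and 18.6 CPM with vehicle (log2 fold change 0.80, SE 0.23, edgeR adjusted p = 0.366). Acsl4, which prefers arachidonate, had 29.2 and 30.2 CPM with BML-260 and 24.5 and 23.5 CPM with vehicle (log2 fold change 0.31, SE 0.12, edgeR adjusted p = 0.447). Acly, the source of cytosolic acetyl-CoA, was at 1550 and 2220 CPM with BML-260 and 3263 and 2957 CPM with vehicle. Its log2 fold change was -0.72 (SE 0.28, edgeR adjusted p = 0.444), and DESeq2 called it lower (adjusted p = 0.0292).

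Among 10 regulators, 2 were above zero and 8 below. Ppara, whose product is a receptor that fatty acids activate, had 48.5 and 54.5 CPM with BML-260 and 25.4 and 24.8 CPM with vehicle, a log2 fold change of 1.04 (SE 0.12), with adjusted p = 0.216 by edgeR and 6.31e-06 by DESeq2. It is also 1 of the 12 thermogenic adipocyte markers, as is Slc27a2. Thrsp, a lipogenic regulator, had 1353 and 1959 CPM with BML-260 and 2330 and 2586 CPM with vehicle (log2 fold change -0.57, SE 0.28, edgeR adjusted p = 0.507). BML-260 A was the lowest library for Thrsp, Acly and Cyb5a, as it was for the summed mature adipocyte markers, whose part in these values was not tested.

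The 8 users of long-chain and polyunsaturated acyl-CoA, such as ceramide synthases and phospholipid acyltransferases, lay between -0.20 and 0.13 on the log2 scale. Cers2, the ceramide synthase of very long chains, had 140 and 154 CPM with BML-260 and 166 and 168 CPM with vehicle, and the acyltransferase gene Agpat3 had 230 and 274 CPM with BML-260 and 290 and 288 CPM with vehicle. The 7 genes of peroxisomal chain shortening lay between -0.29 and 0.30. Abcd3, a peroxisomal transporter, had 107 and 144 CPM with BML-260 and 102 and 102 CPM with vehicle, and the thiolase gene Acaa1a had 149 and 177 CPM with BML-260 and 192 and 186 CPM with vehicle. In neither group did a gene reach an unadjusted p of 0.05 in edgeR's test, and 0 were called by DESeq2.

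**Figure D5:**
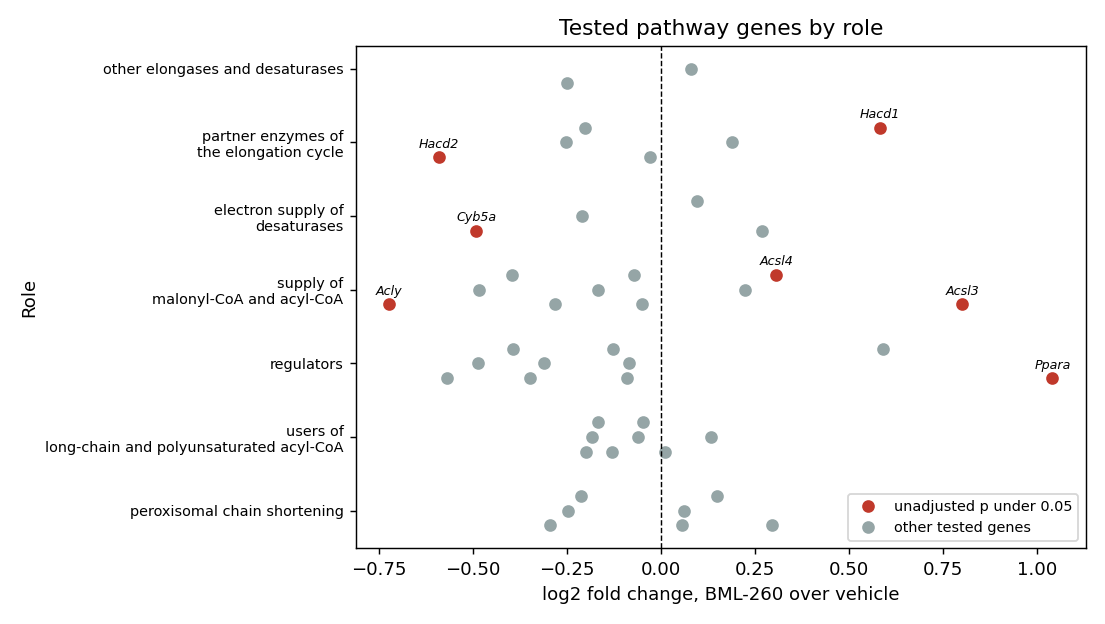
Log2 fold change, BML-260 over vehicle, of the 47 tested pathway genes, in rows by role; red points have an unadjusted edgeR p under 0.05 and are named. Ppara lies furthest to the right at 1.04 and Acly furthest to the left at -0.72.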

How the data were processed

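Total RNA was extracted with TRIzol and made into 4 Illumina libraries (labels' protocols). For each library the authors deposited expected counts (estimated, with 76.5% to 77.8% of those above 0 being whole) and FPKM, per the file headers. The same table holds group means, deposited also on a log2 scale, and the authors' own log2 fold change and p-value for each gene. Per the submitters' processing notes, the build was GRCm38.p5 and the tools, whose roles are not stated, include RSEM 1.2.31, DESeq2 1.10.1 and HISAT2 2.1.0. Annotation and strand setting are not given in the sources used here. Coordinates, overlaps and transcripts came from GENCODE M21, which matched 51719 of 51912 identifiers.

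Expected counts were rounded and genes with low counts removed with filterByExpr, which left 15643. The test across all genes was edgeR 4.0.16 quasi-likelihood (R 4.3.3), TMM factors, treatment as the only term, two-sided, Benjamini-Hochberg adjustment, threshold 0.05; it was tested on simulated data. SE is the log2 fold change over the square root of F, intervals are at 95%, and CPM are TMM-scaled. Intervals on counts cover counting error only. DESeq2 1.42.0, limma-voom (limma 3.58.1), other scalings, no filter, a letter term and leaving out each library were alternatives; limma on log2(FPKM + 1) was added after seeing the data. The members and lists were chosen with earlier results of these data known. Genes named are all members, the 2 pathway genes per role with the smallest p and any under 0.05 or called by DESeq2, the highest marker of each of 12 lists and those at 0, and the 5 profiles nearest to Elovl3; the remaining family genes, Pitx3, Cdc20, Acsl1, Acsl5 and Acss2 were named after their values were seen.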

Additional observations from a re-analysis of the deposited data

How the results depend on the processing

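Of the members, DESeq2 called 2 and edgeR without a filter on low counts called 1. Over all genes, edgeR called 1 higher and 0 lower, while at an unadjusted p of 0.05 the counts were 1165 higher and 564 lower. The calls of DESeq2 were 327 higher (2.09% of tested genes) and 78 lower (0.499%), and those of edgeR without a filter 565 higher and 86 lower. The fit without a filter kept every gene with at least 1 count, so its counts come from a larger base. Leaving out a library gave 0 to 300 higher, the 0 without vehicle A and the 300 without vehicle B, and 0 to 9 lower. Of the pathway genes, DESeq2 and edgeR without a filter called 2 each. The members' median lay between -0.36 and -0.073 when each library was left out, the value nearest to zero without vehicle B, and that of the pathway genes between -0.29 and -0.039. The direction held for each tested member under the other tests, scalings and filters. Leaving out a library turned the sign of Scd1 (-0.045 to 0.19) and Fads2 (-0.14 to 0.0056), both near zero. The gain in the share of Elovl3 among elongases was 6.28 percentage points from FPKM and 2.21 from CPM, where long genes weigh more. With limma on log2(FPKM + 1), a scale that understates low genes, Elovl3 had 2.54 (adjusted p = 0.300).

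The library letters are not known to pair samples, and the A minus B differences of the groups had a correlation of -0.0593 over genes. With the letter as a replicate block, edgeR called 0 genes higher, and Elovl3 had a log2 fold change of 3.39 (edgeR adjusted p = 0.312). Depth limits Elovl4, Elovl7, Elovl2, Scd3 and Scd4, and 2 libraries per group limit all tests.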
